A study of Mus musculus with 6 samples.

Results

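Malat1, Neat1, Miat, Rmst, Pantr1 and Sox2ot are long noncoding RNAs of the mouse nucleus or the developing and adult brain. They were taken by symbol from GENCODE M21, and each symbol matched 1 gene, so 6 of the 55450 genes in the count tables were followed. The study sequenced long RNA from total brain of mice, with 3 libraries from wild-type animals (WT) and 3 from TRMT1L knockout animals (KO), described as biological triplicates. TRMT1L is a relative of TRMT1, which adds methyl groups to a guanosine of tRNA. The allele, strain, sex and age are not given in the sources used here. Total RNA was size-selected for molecules above 200 bp before library preparation with a total RNA kit. Whole brain is a mixture of cells in which fewer cells of a type and less RNA per cell cannot be told apart.

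Long noncoding RNAs carry no protein code and many act where they are made. Malat1 gathers in nuclear speckles, which store splicing factors, and Neat1 is the scaffold of paraspeckles, bodies built on the RNA with proteins such as Nono and Sfpq. Miat forms its own nuclear domains in neurons and binds splicing factors. Rmst is known as a partner of the transcription factor Sox2 in neural progenitors. Sox2ot is transcribed across the Sox2 gene, and Pantr1 starts next to Pou3f3, which encodes a brain POU-domain transcription factor.

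Malat1 and Neat1 share an unusual 3′ end, and it is printed here because its last part resembles a tRNA, the class of molecule that TRMT1-type enzymes modify. In both RNAs a pair of U-rich motifs and an A-rich tract fold into a triple helix that protects the end, and RNase P cuts off a tRNA-like small RNA behind it. The sequences are from GENCODE M21 transcripts on GRCm38, minus strand of chromosome 19, written as DNA from 5′ to 3′. In each of the first pair of lines, the 3 runs of capitals are U-rich motif 1, U-rich motif 2 and the A-rich tract. In the second pair capitals mark the T-loop motif of tRNA, searched as GGTTC, any base, A, any base and TCC. The motifs were written to fit what both ends have in common.
Malat1, chr19:5795982-5796065: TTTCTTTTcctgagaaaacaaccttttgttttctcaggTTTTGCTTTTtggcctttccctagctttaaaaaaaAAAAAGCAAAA
Neat1, chr19:5824708-5824797: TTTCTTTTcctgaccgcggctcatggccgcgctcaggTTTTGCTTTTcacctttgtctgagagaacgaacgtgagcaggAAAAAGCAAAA
Malat1, tRNA-like part, chr19:5795915-5795981: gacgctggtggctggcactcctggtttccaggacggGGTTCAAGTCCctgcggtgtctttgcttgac
Gm27702, tRNA-like, next to Neat1, chr19:5824652-5824707: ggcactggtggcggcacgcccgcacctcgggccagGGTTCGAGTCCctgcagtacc

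The 3 triple-helix motifs occurred in this order within 90 bases in 2 of 139864 annotated transcripts of at least that length, 1 of Malat1 and 1 of Neat1. On the other strand the arrangement was found in 0 transcripts. The T-loop motif, searched on both strands, was found in 0.0551% of 67-base windows over all transcripts. The motifs and the 90-base limit were set from these same ends, so the shares are no measure of rarity. The annotation treats the tRNA-like sequences differently. In Malat1 it lies inside the single exon of Malat1-201, with 225 bases of transcript behind the printed stretch, so reads lying there are part of the Malat1 count. The printed stretch, of 67 bases, is shorter than the size kept for the libraries, so a small RNA cut from it was not measured. In Neat1 the transcript Neat1-201 stops at the A-rich tract, and the tRNA-like RNA is a gene of its own, Gm27702, of 56 bases. Gm27702 had 0 counts in 5 libraries and 2 counts in KO library 3, and it is shorter than the size kept for the libraries, so no comparison was possible. These counts do not bear on base modification, which was not measured.

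Miat carries copies of ACTAAC, which resembles the intron branch point and binds the splicing factor Sf1. The stretch below, chr5:112217319-112217498 on the minus strand, is the 180-base window of Miat-205 with the most copies, in exon 7 of 7, and capitals mark each copy.
Miat: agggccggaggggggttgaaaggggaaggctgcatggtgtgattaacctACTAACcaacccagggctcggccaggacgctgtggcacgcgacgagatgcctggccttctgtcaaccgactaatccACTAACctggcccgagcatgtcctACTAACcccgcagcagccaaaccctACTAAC

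This window held 4 copies. Over all transcripts 3.65% of windows of the same length held at least 1 copy on either strand and 0.00195% held at least 4, but the Miat window was chosen for its number of copies and those were not, so the shares are no measure of its rarity. The longest transcripts of the members held 11 copies in Miat, 4 in Neat1, 1 in Pantr1 and 0 in Malat1, Rmst and Sox2ot. Per kilobase that was 1.20 copies in Miat, 0.193 in Neat1 and 0.480 in Pantr1. An annotated RNA feature with 0 counts, Gm27627 (112217318 to 112217467, same strand), covers most of the printed stretch, and a read lying in both genes is assigned to neither.

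Counts in genes on the sense strand lay between 31201119 and 36145961 per library, from 78341827 to 89979690 total reads. The labels were checked with Trmt1l, with 1279, 1034 and 1158 counts in WT and 93, 101 and 106 in KO (log2 fold change -3.58, SE 0.0813; edgeR adjusted p = 6.95e-10). Markers of brain cells were detected in every list: the summed level of 14 neuronal markers was between 7247 and 7834 CPM (counts scaled to a common library total) and that of 10 astrocyte markers between 5187 and 5544 CPM.

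All 6 members passed the filter on low counts, and levels are given first. Malat1 (ENSMUSG00000092341.3) lies on chromosome 19 from 5795690 to 5802672 on the minus strand, and its longest transcript is a single exon. WT libraries 1, 2 and 3 gave 763445, 634427 and 693647 counts, and the KO libraries 661257, 719512 and 721417 counts, the highest mean CPM of all genes. It made up between 1.91% and 2.11% of all gene counts. Malat1 alone supplied between 97.2% and 97.6% of the counts of the 6 members together, so any total over them is a measure of Malat1.

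Miat (ENSMUSG00000097767.8, chromosome 5 from 112213228 to 112229395, minus strand) ranked 443 of all genes by mean CPM. Neat1 (ENSMUSG00000092274.3, chromosome 19 from 5824708 to 5845478, minus strand) ranked 1383. Both were far below Malat1. Sox2ot (ENSMUSG00000105265.4, chromosome 3 from 34104270 to 34682619, plus strand) ranked 5665, and it spans 578350 bases of the genome. Rmst (ENSMUSG00000112117.1, chromosome 10 from 92071037 to 92165170, minus strand) ranked 8289. Pantr1 (ENSMUSG00000060424.14, chromosome 1 from 42590782 to 42694842, minus strand) ranked 9866. Among the 10155 long noncoding RNA genes alone, the ranks by mean CPM were 1, 11, 16, 52, 104 and 145 in the same order. CPM takes no account of length, which favours a long RNA such as Neat1. Per kilobase of merged exons the ranks among all genes were 6 for Malat1, 938 for Miat, 6334 for Neat1, 10726 for Sox2ot, 11583 for Pantr1 and 11939 for Rmst. Among long noncoding RNA genes the ranks per kilobase were 1, 10, 89, 303, 371 and 397 in that order. The name abundant thus fitted Malat1 and Miat on both scales, and Neat1 by CPM but less so per kilobase.

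Levels of different genes were compared per kilobase of merged exons (RPKM, over all 6 libraries). Malat1 had a mean of 2928 ± 125 RPKM (SD, n = 6), which was 84.0 times that of Miat at 34.8 ± 1.27. Miat in turn had 4.70 times the level of Neat1, at 7.42 ± 0.641 RPKM. Neat1 was followed by Sox2ot at 3.34 ± 0.252, Pantr1 at 2.83 ± 0.202 and Rmst at 2.62 ± 0.214 RPKM. The ranges of Pantr1 and Rmst over the libraries overlapped, and these 2 did not differ beyond their spread. Sox2ot lay barely above Pantr1, with a lowest value of 3.17 against a highest of 3.12 RPKM. Below Miat the order rested on the length used. With the longest transcript in place of the merged exons, Sox2ot reached a mean of 11.1 RPKM, above Neat1, and Rmst reached 6.74, above Pantr1 at 6.06. Gene counts do not separate isoforms, so the 4 annotated Neat1 transcripts, the longest of 20771 bases, entered as 1 value.

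**Figure D1:**
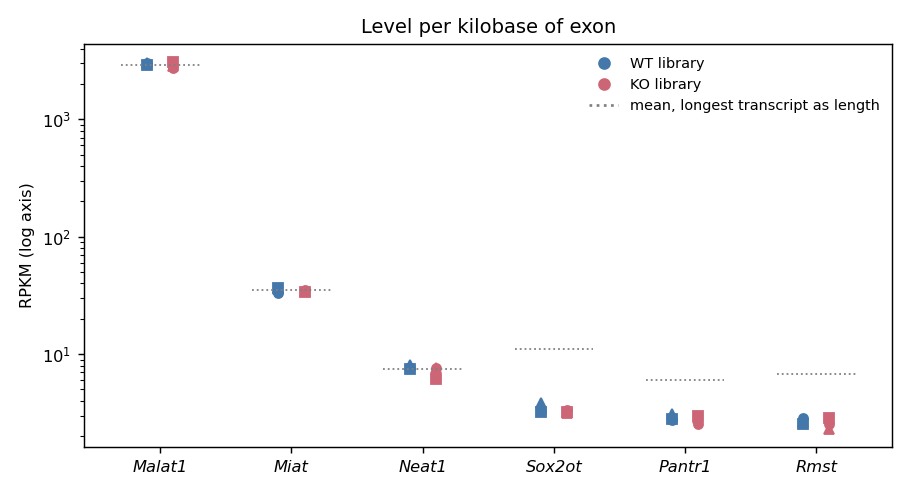
Level of each transcript in RPKM on a log axis, for 3 WT (blue) and 3 KO (red) libraries with merged exons as length; dotted lines are the mean over 6 libraries with the longest transcript as length. Malat1 stands near 2928 RPKM and Miat next at 34.8, and the dotted lines move Sox2ot above Neat1 and Rmst above Pantr1.

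The comparison of KO with WT asked whether the loss of TRMT1L altered these RNAs. None of the 6 members passed the test over all genes (edgeR's quasi-likelihood test, Benjamini-Hochberg adjustment over 21237 genes), in which 0.00942% of genes passed. At an unadjusted p under 0.05, 0 of the 6 passed, against 7.92% of all genes (3.38% lower and 4.54% higher in KO) and 4.99% of long noncoding RNA genes. The WT and KO libraries overlapped for each of the 6, whereas the groups did not overlap for 14.4% of all genes (6.97% lower in KO). All 6 fitted log2 fold changes were below 0, with a median of -0.056. Of all genes 49.9% were below 0, and of the 2445 long noncoding RNA genes tested 61.1%, with medians of 0.00013 and -0.051.

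Malat1 was measured at 20981, 20237 and 21078 CPM in WT 1, 2 and 3, and KO 1, 2 and 3 gave 19030, 21375 and 19959 CPM. The highest and the 2 lowest values were all KO libraries, so the KO group spanned the WT group. The means were 20766 ± 460 CPM in WT and 20121 ± 1181 in KO (SD, n = 3), and the log2 fold change was -0.045 (SE 0.0419; edgeR adjusted p = 0.814). The 95% interval of the difference ran from -9.07% to 3.25%. Counting error was 0.120% at this depth, far below the spread between libraries. Leaving out KO library 2 gave -0.091 for Malat1, with an unadjusted p of 0.0263 and an adjusted p of 0.657 in the edgeR test. Leaving out KO library 1 gave -0.0081 (edgeR adjusted p = 0.968).

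Neat1 levels were 158, 154 and 167 CPM in WT 1, 2 and 3, against 159, 128 and 157 CPM in KO 1, 2 and 3. KO library 2 was the lowest of all 6, and the other 2 KO libraries lay within the WT range. The means were 160 ± 6.62 CPM in WT and 148 ± 17.1 in KO (SD, n = 3). The log2 fold change of Neat1 was -0.11 (SE 0.0730; edgeR adjusted p = 0.731), with a 95% interval from -17.2% to 3.33%. It rested on KO library 2, without which it was -0.020 (edgeR adjusted p = 0.947).

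Malat1 and Neat1 are neighbours transcribed in the same direction, and the ratio of their counts does not depend on the scaling. For each Neat1 count WT 1, 2 and 3 had 132, 131 and 126 Malat1 counts, and KO 1, 2 and 3 had 120, 167 and 127. KO library 2, at the same time the highest of the 6 in Malat1 and the lowest in Neat1, stood apart. The mean log2 ratio was 7.02 ± 0.0380 in WT and 7.09 ± 0.253 in KO (SD, n = 3), a difference of 0.072 (p = 0.9 in a two-sided exact permutation test; 3 against 3 libraries cannot go below 0.1). Without KO library 2 the difference was -0.072.

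In WT 1, 2 and 3 Miat stood at 306, 341 and 331 CPM, and in KO 1, 2 and 3 at 325, 317 and 323 CPM. All 3 KO values lay between the lowest and the highest WT value. Miat had the smallest fitted difference of the 6, -0.019 on the log2 scale (SE 0.0461; edgeR adjusted p = 0.942), with a 95% interval from -7.99% to 5.81%.

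In WT 1, 2 and 3 Rmst stood at 21.2, 18.7 and 19.7 CPM, and in KO 1, 2 and 3 at 18.7, 21.3 and 17.2 CPM. The KO values again reached above and below all WT values. Its log2 fold change was -0.061 (SE 0.0864; edgeR adjusted p = 0.884), with a 95% interval from -15.9% to 9.30%.

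In WT 1, 2 and 3 Pantr1 stood at 12.2, 12.4 and 13.9 CPM, and in KO 1, 2 and 3 at 11.3, 13.1 and 12.8 CPM. Only KO library 1 lay below the WT range. The log2 fold change of Pantr1 was -0.051 (SE 0.0911; edgeR adjusted p = 0.916), and the 95% interval ran from -15.9% to 10.9%. At a mean of 431.5 counts, its counting error of 4.81% was the largest of the 6.

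In WT 1, 2 and 3 Sox2ot stood at 38.1, 37.0 and 44.5 CPM, and in KO 1, 2 and 3 at 38.9, 37.2 and 36.8 CPM. WT library 3 stood above the other 5, which lay close together. The log2 fold change was -0.084 (SE 0.0714; edgeR adjusted p = 0.797), with a 95% interval from -15.4% to 5.11%. Without WT library 3 it was 0.0025.

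**Figure D2:**
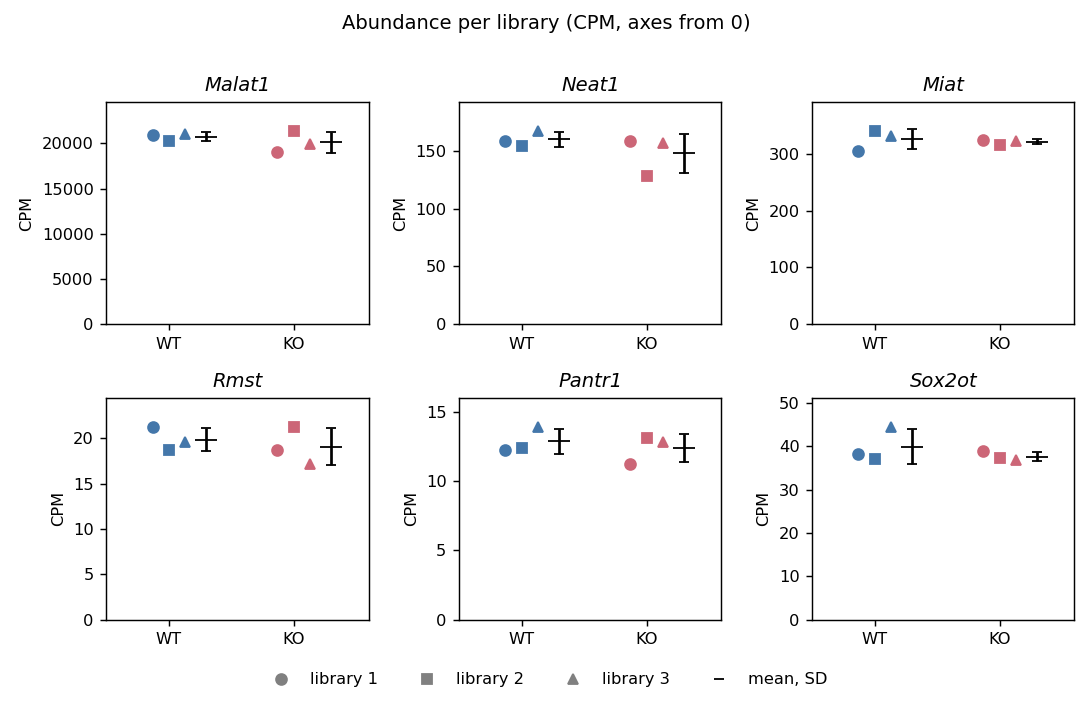
CPM of each transcript in 3 WT (blue) and 3 KO (red) libraries, with symbols for the library number and bars for mean and SD; each axis starts at 0. WT and KO points overlap in all 6 panels, and KO library 2 is the lowest Neat1 value at 128 CPM.

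The spread between libraries was smallest for the 2 most abundant members per kilobase, Malat1 and Miat. The ratio of the highest to the lowest library was 1.11 for Miat, 1.12 for Malat1, 1.21 for Sox2ot, 1.24 for Rmst and for Pantr1, and 1.30 for Neat1. The direction of the small differences was not fixed by all libraries. With 1 library left out at a time, Malat1 and Neat1 stayed below 0 in all 6 fits, while Miat, Rmst, Pantr1 and Sox2ot each turned above 0 in at least 1.

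**Figure D3:**
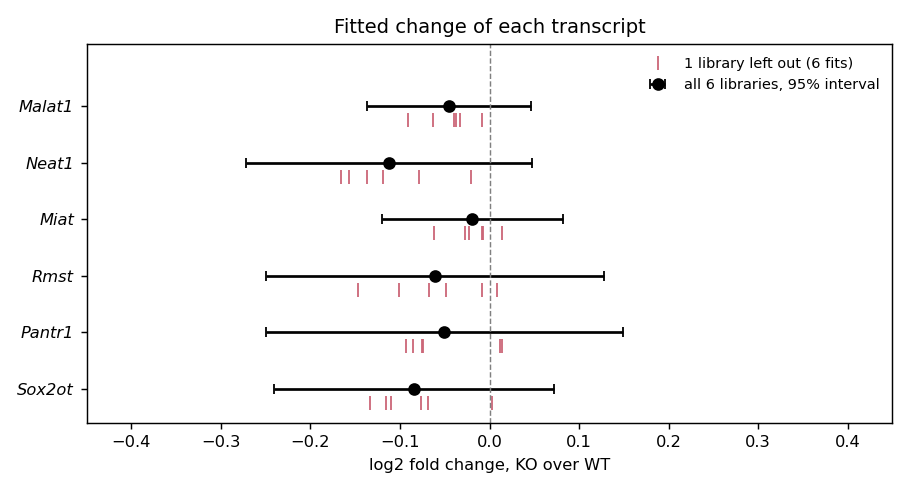
Log2 fold change of KO over WT for each transcript with its 95% interval (black), and the 6 values with 1 library left out (red ticks). All intervals cross 0, and the red ticks of Miat, Rmst, Pantr1 and Sox2ot reach past 0.

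The share of mapped reads that fell in no gene, which includes reads from introns, was 51.0%, 52.2% and 50.3% in WT 1, 2 and 3 but 49.3%, 49.8% and 48.6% in KO 1, 2 and 3. Every KO value was below every WT value (p = 0.1 in a two-sided exact permutation test, the lowest that 3 against 3 allow). Its part in the slightly negative values of the members, or of long noncoding RNA genes as a class, was not tested.

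Partners of these RNAs came next, from lists of protein-coding genes. Of 23 paraspeckle genes, 0 passed the edgeR test over all genes in either direction and 0 had an unadjusted p under 0.05. Over all genes 0.00942% and 7.92% met these thresholds, and 49.9% were below 0. The median log2 fold change of the paraspeckle genes was 0.028, with 14 above and 9 below 0. The smallest p-values were those of Rbm14, an RNA-binding protein required for paraspeckles (0.18, SE 0.0856; edgeR adjusted p = 0.628), Zc3h6 (-0.20) and Pspc1 (0.11). Of 24 nuclear speckle genes, including Son, Srrm2 and serine-arginine splicing factors, 0 passed and 0 had an unadjusted p under 0.05, with a median of 0.037 and 17 above 0. Rbm25 (-0.082), U2af1 (0.090) and Srsf4 (0.090) had the smallest p-values there, with edgeR adjusted p-values from 0.666 to 0.735.

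Of the 5 listed Miat partners, 0 passed over all genes and 1 had an unadjusted p under 0.05. That gene was Qk, which encodes the RNA-binding protein quaking, abundant in oligodendrocytes and astrocytes. Its mean was 624 ± 14.0 CPM in WT and 564 ± 9.29 in KO (SD, n = 3), and the groups did not overlap (log2 fold change -0.14, SE 0.0378; edgeR adjusted p = 0.576). Of 10 oligodendrocyte markers 9 were below 0 in the fit and 2 of those had an unadjusted p under 0.05. Their summed level was between 4261 and 4693 CPM in WT and between 3671 and 4388 CPM in KO. Of 10 astrocyte markers 7 were above 0, and 4 higher and 1 lower had an unadjusted p under 0.05, with a median log2 fold change of 0.082. Over all genes the shares were 4.54% higher and 3.38% lower at that threshold, and 14.4% had groups that did not overlap. The summed astrocyte level was between 5360 and 5544 CPM in WT and between 5187 and 5443 CPM in KO. The part of either cell type in the Qk value was not tested. The branch-point binder Sf1 (0.13) and Celf3 (0.054) did not pass either.

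The genes beside or around the members were examined for the same contrast. Sox2, a transcription factor of neural stem cells, lies inside an intron of Sox2ot on the same strand. Its levels ran from 18.1 to 26.6 CPM over the WT libraries and from 15.8 to 24.8 CPM over the KO libraries. The Sox2 groups overlapped, its highest library had 1.68 times its lowest, and its log2 fold change was -0.047 (SE 0.162; edgeR adjusted p = 0.963). Pou3f3, on the opposite strand to Pantr1 with a start 926 bases away, had 70.3 ± 3.66 CPM in WT and 71.3 ± 2.25 in KO (log2 fold change 0.020, SE 0.0535; edgeR adjusted p = 0.947). Of 12 tested genes in the list of Sox, POU and midbrain transcription factors, 0 passed and 1, Pou3f1 (0.28, edgeR adjusted p = 0.614), had an unadjusted p under 0.05, near the 7.92% of all genes. En1 (0.43) and Lmx1a (0.53), genes of the midbrain, came next and did not pass.

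Frmd8, a protein-coding gene 4224 bases from Neat1, had a log2 fold change of -0.0074 and did not pass (edgeR adjusted p = 0.988). Other nearest tested protein-coding genes, some far off, were Mn1 (0.23) and Crybb1 (0.46) for Miat, Tmpo (-0.0015) and Nedd1 (-0.14) for Rmst, and Mfsd9 (-0.097) for Pantr1 on the side away from Pou3f3. Dnajc19 (0.017) and Atp11b (-0.12) flank Sox2ot. None of these passed over all genes, with edgeR adjusted p-values from 0.579 for Mn1 to 0.998 for Tmpo. Mn1 (unadjusted p = 0.0114, edgeR adjusted p = 0.579; KO above WT) and Atp11b (unadjusted p = 0.0470, edgeR adjusted p = 0.623; KO below WT) had groups that did not overlap.

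In all, 36 annotated genes overlap the members, 26 of them on the same strand, and 21 had 0 counts in all libraries. Of the 10 that could be tested 0 passed, against 0.00942% of all genes. An unadjusted p under 0.05 was found for 1 of the 10, against 7.92% of all genes. That was Gm42692, an annotated feature inside an intron of Sox2ot on the same strand. It was counted 290, 266 and 252 times in WT and 271, 208 and 220 times in KO (log2 fold change -0.26, SE 0.117; unadjusted p = 0.0439, edgeR adjusted p = 0.622). Its counts cannot be separated from unspliced Sox2ot.

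Rmst hosts the microRNA genes Mir135a-2 and Mir1251 in its introns. Counts were 20, 25 and 24 (WT) and 17, 35 and 26 (KO) at Mir135a-2, and 41, 28 and 32 (WT) and 36, 36 and 28 (KO) at Mir1251. Mature microRNAs are far shorter than the size selection allows, so these counts are not levels of the microRNAs. Neither locus passed (log2 fold changes 0.12 and -0.063, edgeR adjusted p = 0.944 and 0.963).

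Which reads count for a member depended strongly on strand. When strand was ignored, Malat1 kept a mean of 87.9% of its sense count, Miat 68.4% and Rmst 71.3%, and the other 3 between 100% and 103%. In Malat1, Miat and Rmst an annotated gene on the other strand overlaps exons, over 6.49% of exon bases in Malat1 (Gm37376), 24.3% in Miat (Gm26953) and 26.3% in Rmst (Gm26700). A read that lies in both genes is left out when strand is ignored. Gm37376 itself had from 41 to 80 counts on its own strand but from 69768 to 91805 on the strand of Malat1, inside whose exon it lies. Same-strand features also cost reads, as a read in 2 genes of the same strand is left out in either counting. They cover 12.5% of exon bases in Rmst, 7.74% in Miat, 5.11% in Sox2ot, 1.85% in Neat1 and 1.23% in Malat1, and their reads are not in the levels above.

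**Figure D4:**
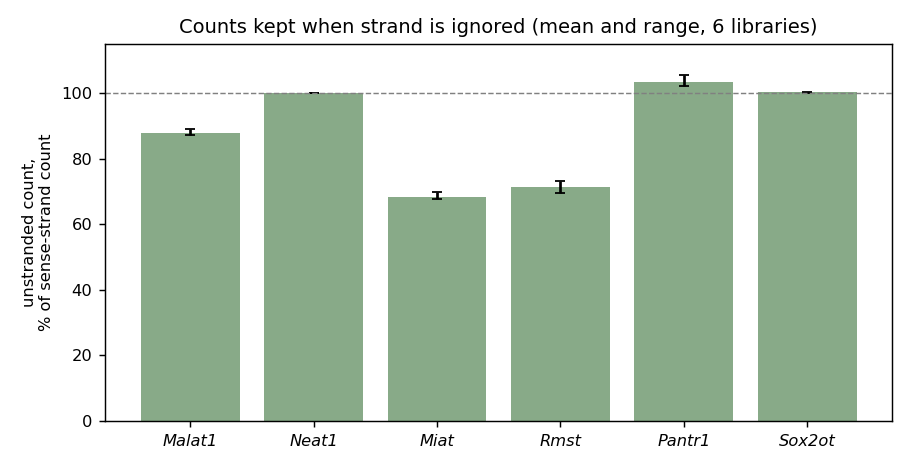
Count of each transcript without regard to strand, as a percent of its sense-strand count; bars are means over 6 libraries and whiskers the lowest and highest library. Malat1, Miat and Rmst lose counts (means 87.9%, 68.4% and 71.3%) and the other 3 do not.

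Reads on the strand opposite to the members themselves were a small share of the reads of both strands, largest at Pantr1. They made up a mean of 5.65% at Pantr1 (21 to 32 counts), 0.466% at Rmst, 0.311% at Sox2ot, 0.125% at Miat, 0.0958% at Neat1 and 0.0570% at Malat1. By number they were most at Malat1, with 288 to 534 counts per library. The 3 members with enough opposite-strand counts to test (Malat1, Miat and Pantr1) did not pass in the edgeR test, in which 0.0278% of genes in that column passed. None had an unadjusted p under 0.05 there. Without the filter all 6 could be tested and 0 passed, against 0.0464% of genes.

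Other nuclear or brain noncoding RNAs were set beside the 6 from a list of 35 symbols, of which 29 matched and 26 were tested. None passed over all genes, and 2 above and 1 below 0 had an unadjusted p under 0.05, a threshold met by 7.92% of all genes and 4.99% of long noncoding RNA genes. Their median log2 fold change was -0.024, against -0.056 for the members. The RNA polymerase III transcript Rn7sk had the smallest p (log2 fold change 0.26, SE 0.0480; edgeR adjusted p = 0.542), followed by Gm26917 (0.41) and Snhg14 (-0.11). The Gm26917 groups overlapped, and its highest library had 1.77 times its lowest. The well-known nuclear RNAs Kcnq1ot1, an imprinted antisense RNA, and Tug1 had -0.082 and -0.054, and the imprinted Meg3 and Rian had 0.074 and -0.11; these 4 were chosen after their values were seen.

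For each member, the genes with the most similar profile over the 6 libraries were listed among 10640 genes with at least 10 CPM, by Pearson's r of log2 CPM. With only 6 points and so many candidates high values are bound to occur, and they are given as a description. The top gene was A2m for Malat1 (r = 0.984), Epm2a for Neat1 (0.994), Csmd1 for Miat (0.987), Desi1 for Rmst (0.980), Zfp113 for Pantr1 (0.993) and Mettl4 for Sox2ot (0.996). The next were Gm43597 and Copz1 for Malat1, Rnf141 and Cfl2 for Neat1, Vrk1 and Sv2b for Miat, Atad2b and Slc4a4 for Rmst, Gm44168 and Slc4a7 for Pantr1, and Pou3f2 and Cetn3 for Sox2ot. Between 10 (Miat) and 46 (Neat1) genes exceeded 0.95. Among the 15 pairs of members, r ran from -0.57 for Miat with Rmst to 0.76 for Malat1 with Pantr1, and it was -0.38 for the neighbours Malat1 and Neat1.

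Marker lists of the cells and regions in whole brain gave no gene past the test over all genes. The summed level of the 10 choroid plexus and ependyma markers was 334 to 391 CPM in WT and 398 to 471 CPM in KO. These groups did not overlap. Of these markers 8 were above and 2 below 0 in the fit, and 3 higher and 0 lower in KO had an unadjusted p under 0.05. Over all genes the shares at that threshold were 4.54% higher and 3.38% lower. Among single genes, 14.4% had groups that did not overlap. The summed levels of the other 11 lists overlapped, and no listed marker was at 0 in all libraries. The 11 markers of midbrain dopamine neurons and hypothalamus, regions where Rmst is known to be expressed, summed to 46.4 to 68.4 CPM in WT and 60.8 to 69.3 in KO. The part of cell or region content in the levels of the members was not tested.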

How the data were processed

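Per the submitters' processing notes, cutadapt 1.9.1 and STAR 2.7.0f were used; the genome build and annotation are not given in the sources used here. The authors deposited whole-number read counts per gene, 1 file per library, not normalized. All 55450 gene identifiers match GENCODE M21 (GRCm38), used for names, positions and exon lengths. The sense-strand counts (column 4) were used, which held at least 94.6% of stranded counts. Reads in several genes or at several places stand in separate rows of the deposited files and were left out of library totals.

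Genes were filtered (filterByExpr), scaled (TMM) and tested with edgeR 4.0.16 (quasi-likelihood, Benjamini-Hochberg over 21237 genes; R 4.3.3), with genotype as the only factor. SE is the log2 fold change over the root of F; intervals are 95% with the fit's degrees of freedom. CPM uses TMM-scaled totals, and RPKM divides by merged exon length. The test was checked on simulated counts. Alternatives used limma 3.58.1, DESeq2 1.42.0 and others in the closing section.

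Members and lists were chosen with earlier results of these data known. Named were the members, their overlapping and flanking genes, Sox2, Pou3f3, Trmt1l, the 3 most similar genes per member and the 3 smallest p-values per list; other genes were chosen after their values were seen. The labels tie no library to a litter or batch. Some results that the rule for named genes covers are not reported here.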

Additional observations from a re-analysis of the deposited data

How the results depend on the processing

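No member passed the threshold under the alternatives run (DESeq2 gave no adjusted p for Rmst, Pantr1 and Sox2ot), and the ones that used all 6 libraries (unstranded counts, DESeq2 size factors, total counts, no filter, a minimum mean of 50 counts, DESeq2's Wald test, limma-voom, the replicate block) kept all 6 below 0. Scaling by total counts moved the median of all genes by -0.010 on the log2 scale. Without a filter Neat1 had an edgeR adjusted p = 0.680 (unadjusted 0.0404). Leaving out 1 library gave ranges of log2 fold change from -0.091 to -0.0081 for Malat1, -0.17 to -0.020 for Neat1, -0.062 to 0.014 for Miat (above 0 without WT replicate 2), -0.15 to 0.0081 for Rmst (without KO replicate 3), -0.093 to 0.014 for Pantr1 (0.012 without WT replicate 3, 0.014 without KO replicate 1) and -0.13 to 0.0025 for Sox2ot (without WT replicate 3). The Malat1 to Neat1 log2 ratio ranged from -0.072, without KO replicate 2, to 0.16. The number of genes past the threshold, 2 in the main test, was 298 without a filter, 26 with DESeq2, 4 with the replicate block and from 2 to 5 with 1 library left out (5 without KO replicate 3); the cause was not tested. The labels do not tie same-numbered libraries to each other, and their deviations correlated at 0.040, -0.031 and -0.058 across genes, so the numbers gave no sign of pairing. With the replicate block Neat1 had -0.12 (edgeR adjusted p = 0.747) and the ratio differed by 0.072 (exact sign-flip test, p = 0.75, smallest possible 0.25). The counting error was largest for Pantr1, at 4.81%, and gene counts do not resolve isoforms.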
